A study of Mus musculus with 4 samples.

Results

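The genes described here encode the proteins of the cytosolic ribosome. They were taken by symbol from a table of single-cell RNA sequencing of intestinal T cells, made with droplets: every symbol of the form Rpl or Rps followed by a number, with the usual letter endings, plus Rpsa, Rplp0, Rplp1 and Rplp2, leaving out pseudogene names and the S6 kinases. This gave 82 of 13265 genes, 50 of the large and 32 of the small subunit. They include 77 of 79 listed proteins of the mouse cytosolic ribosome and 5 related genes that are not on that list (Rpl7l1, Rpl22l1, Rpl36al, Rpl39l and Rps27l). Fau, which encodes a ribosomal protein fused to a ubiquitin-like protein, does not have a name of this form and is given apart.

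The mice were 7 to 8 months old, and small intestinal CD4+ T cells positive for YFP were sorted from pools of them. All mice carried a Cre recombinase expressed from Il17a and a YFP reporter at Rosa26 that Cre switches on, so YFP marks cells that have at some time expressed Il17a, the T helper 17 (TH17) cytokine. TGFβR-KO mice had in addition a floxed Tgfbr2, deleted in those cells, TGFβR-CA mice a constitutively active Tgfbr1 that Cre turns on, and TGFβR-WT mice neither. The labels list 1 sample of TGFβR-KO, 1 of TGFβR-CA and 2 of TGFβR-WT. TGFβR-KO was sequenced with a TGFβR-WT sample in one batch and TGFβR-CA with a TGFβR-WT sample in another, so that a condition and its batch can be told apart only through the TGFβR-WT cells.

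The table holds 5080 cells, of which 2975 are labelled TGFβR-KO, 1098 TGFβR-CA and 1007 TGFβR-WT. By the suffix of their names, the TGFβR-WT cells form 2 sets, the larger with 709 cells and the smaller with 298. The labels assign neither to a listed sample or batch, so they are shown side by side and each ratio is given against both. Values are unique molecular identifiers (UMIs, each standing for 1 captured transcript) as corrected by the authors, and levels are corrected UMIs per 10000 corrected UMIs, summed over cells. The corrected UMIs come to 11479720 in TGFβR-KO, 4382832 in TGFβR-CA, and 2506375 and 1213190 in the larger and smaller TGFβR-WT sets. TGFβR-KO and TGFβR-CA are 1 library each and cells are not replicates. The only spread within a genotype is that between the TGFβR-WT sets, too little for a test with any power, and none was made between conditions. A member was called higher or lower by size alone, when its ratio was at least 1.2 (or at most 0.833) against both TGFβR-WT sets. Of the 82 genes, 81 had at least the 200 corrected UMIs required. Rpl39l was listed at 0 in TGFβR-CA and in the smaller TGFβR-WT set, and had a level of 0.0200 in TGFβR-KO and 0.0399 in the larger set.

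The libraries stood apart in several ways that touch every ratio. A total of 16 cell barcodes (32 cells) occurred in more than 1 set, 14 of them both in TGFβR-KO and among the larger TGFβR-WT set. Gm42418, a gene that overlaps ribosomal RNA sequence, had a level of 483 in TGFβR-CA and of 35.8 to 49.0 in the other sets. Tgfbr1 had a level of 0.792 in TGFβR-CA, between 0.367 in the larger and 2.79 in the smaller TGFβR-WT set, and Tgfbr2 had a level of 1.48 in TGFβR-KO and of 1.72 to 1.78 elsewhere. Reads from transcript ends need not cover the deleted part of Tgfbr2 or the transgene, so neither gene checks the labels, and conditions are named as the cells are labelled. T cell genes were present in every set (Cd3e at 10.5 to 13.9), and the summed levels of CD8 T cell, γδ T cell, myeloid and epithelial markers did not exceed 0.0453, 0.181, 0.0525 and 0.287 in any set. B and plasma cell markers were higher and differed between sets, with summed levels of 1.21 in TGFβR-KO, 2.40 in TGFβR-CA, and 2.65 and 1.26 in the TGFβR-WT sets, mostly from Ighm and Jchain, while Cd79a and Ms4a1 did not exceed 0.0838 and 0.0239. The part of such cells in the results was not tested.

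Ribosomal proteins assemble with ribosomal RNA into a small subunit, which reads the messenger RNA, and a large subunit, which joins amino acids. A ribosome needs most of its proteins in equal amounts, and their messenger RNAs are known to be regulated together. Many begin with a cytosine followed by a run of pyrimidines, the 5′ terminal oligopyrimidine (TOP) tract, through which LARP1 and the mTORC1 kinase control their translation. T cells are known to make more ribosomes when they are activated and grow.

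The TOP tract is a feature that the choice by symbol did not use. RefSeq windows on GRCm38.p6 (from 250 bases before to 50 bases from the annotated start) were at hand for 62 of the 82 genes. At the exact annotated start, 13 of these 62 (20.97%) had a C followed by at least 4 pyrimidines, read on the gene's strand. The same was found in 299 of 9789 genes of the table with a window (3.05%), in 813 of 27025 genes with a window overall (3.01%) and in 0 of 69 genes of the mitochondrial ribosome. An annotated start that is off by 1 base hides such a tract. The sequences below run from 15 bases before the start to the 15th base from it, with the C and its pyrimidine run in capitals. They show 3 members called higher in TGFβR-KO (Rps15a, Rps18 and Rps21), 2 called lower there (Rpl15 and Rpl35), and Rps6, the substrate of S6 kinases.
Rps15a, chr7:118116133-118116162, minus strand: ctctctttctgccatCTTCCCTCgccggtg
Rps18, chr17:33955651-33955680, minus strand: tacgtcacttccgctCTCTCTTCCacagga
Rps21, chr2:180257364-180257393, plus strand: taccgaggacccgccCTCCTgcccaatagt
Rpl15, chr14:18270972-18271001, minus strand: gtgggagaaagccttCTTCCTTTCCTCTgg
Rpl35, chr2:39005117-39005146, minus strand: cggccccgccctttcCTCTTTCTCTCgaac
Rps6, chr4:86857353-86857382, minus strand: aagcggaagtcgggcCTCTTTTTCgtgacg
Members with a tract were thus found among those called in either direction. Of the members called higher in TGFβR-KO, 3 of 13 with a window had a tract, and of the other members 10 of 49 did.

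The genome also holds many processed copies of these genes, and a read that matches several places may go uncounted or be split. In the GENCODE vM21 transcripts, 75 of the 82 genes had at least 1 stretch of 60 bases near a transcript end (the last 400 bases) that also occurs in a transcript of another gene, on either strand. In 38 genes this held for at least 50% of such stretches, and Rpl29 shared them with 63 other genes. Levels of single members are therefore uncertain, and where levels of different genes stand side by side, as for paralogs, they are a description.

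In TGFβR-KO cells the ribosomal protein genes together made up a larger share of the transcripts than in either TGFβR-WT set. Their summed level was 2789 in TGFβR-KO, 2370.5 in TGFβR-CA, 2473 in the larger and 2219 in the smaller TGFβR-WT set. TGFβR-KO thus stood 1.13 times above the larger and 1.26 times above the smaller set, while TGFβR-CA lay between them, at 0.958 and 1.07 times. The smaller set stood at 0.897 times the larger, and this is the only measure of how far apart libraries of 1 genotype can be. Per cell, the share was 28.0% ± 6.18 (SD over 2975 cells) in TGFβR-KO, 23.9% ± 5.81 (1098 cells) in TGFβR-CA, 24.97% ± 6.53 (709 cells) and 22.3% ± 5.42 (298 cells) in the TGFβR-WT sets, so the distributions of single cells overlapped widely. Both subunits followed this order. The large subunit had a summed level of 1526 in TGFβR-KO and of 1350 and 1245 in the TGFβR-WT sets, and the small subunit of 1263 against 1123 and 973. The ratio of large to small subunit transcripts was 1.21 in TGFβR-KO, 1.19 in TGFβR-CA, and 1.203 and 1.28 in the TGFβR-WT sets.

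Cells with more detected genes had a lower share, and the sets differ in detected genes (medians of 1488 in TGFβR-KO, 1555 in TGFβR-CA, 1470 and 1675 in the TGFβR-WT sets). Across the cells of a set, Pearson's r between the share and the number of detected genes ran from -0.41 to -0.54. Both measures come from the same corrected UMIs, so this is a description. Among cells with at least 1500 and under 1700 detected genes, the median share was 27.2% in TGFβR-KO (576 cells), 23.6% in TGFβR-CA (259 cells), and 23.7% (122 cells) and 23.8% (62 cells) in the TGFβR-WT sets. The higher share in TGFβR-KO was therefore also present at like numbers of detected genes. Among cells with at least 2000, medians were closer, at 22.1% against 20.7% and 19.6%.

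Gene by gene, 56 of 81 members (69.1%) had a higher level in TGFβR-KO than in both TGFβR-WT sets, and 9 a lower one. Of all 7490 genes tested, 18.3% lay above and 50.4% below both sets. The median ratio to pooled TGFβR-WT was 1.17 over the members and 0.888 over all genes tested. By the ratio of 1.2 against both sets, 19 of 81 members (23.5%) were called higher in TGFβR-KO, where 6.7% of all genes tested were called. Another 5 members (6.17%) were called lower, where 21.4% of all genes tested were. Of those called higher, 12 encode proteins of the small subunit (among them Rps2, Rps4x, Rps9, Rps13, Rps14, Rps15a, Rps18, Rps19, Rps21 and Rps24) and 7 of the large subunit (among them Rpl3, Rpl4, Rpl9, Rpl11, Rpl24 and Rpl32). No member reached a ratio of 1.5 against both sets in either direction, where 2.94% of all genes tested were higher and 5.43% lower.

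**Figure D1:**
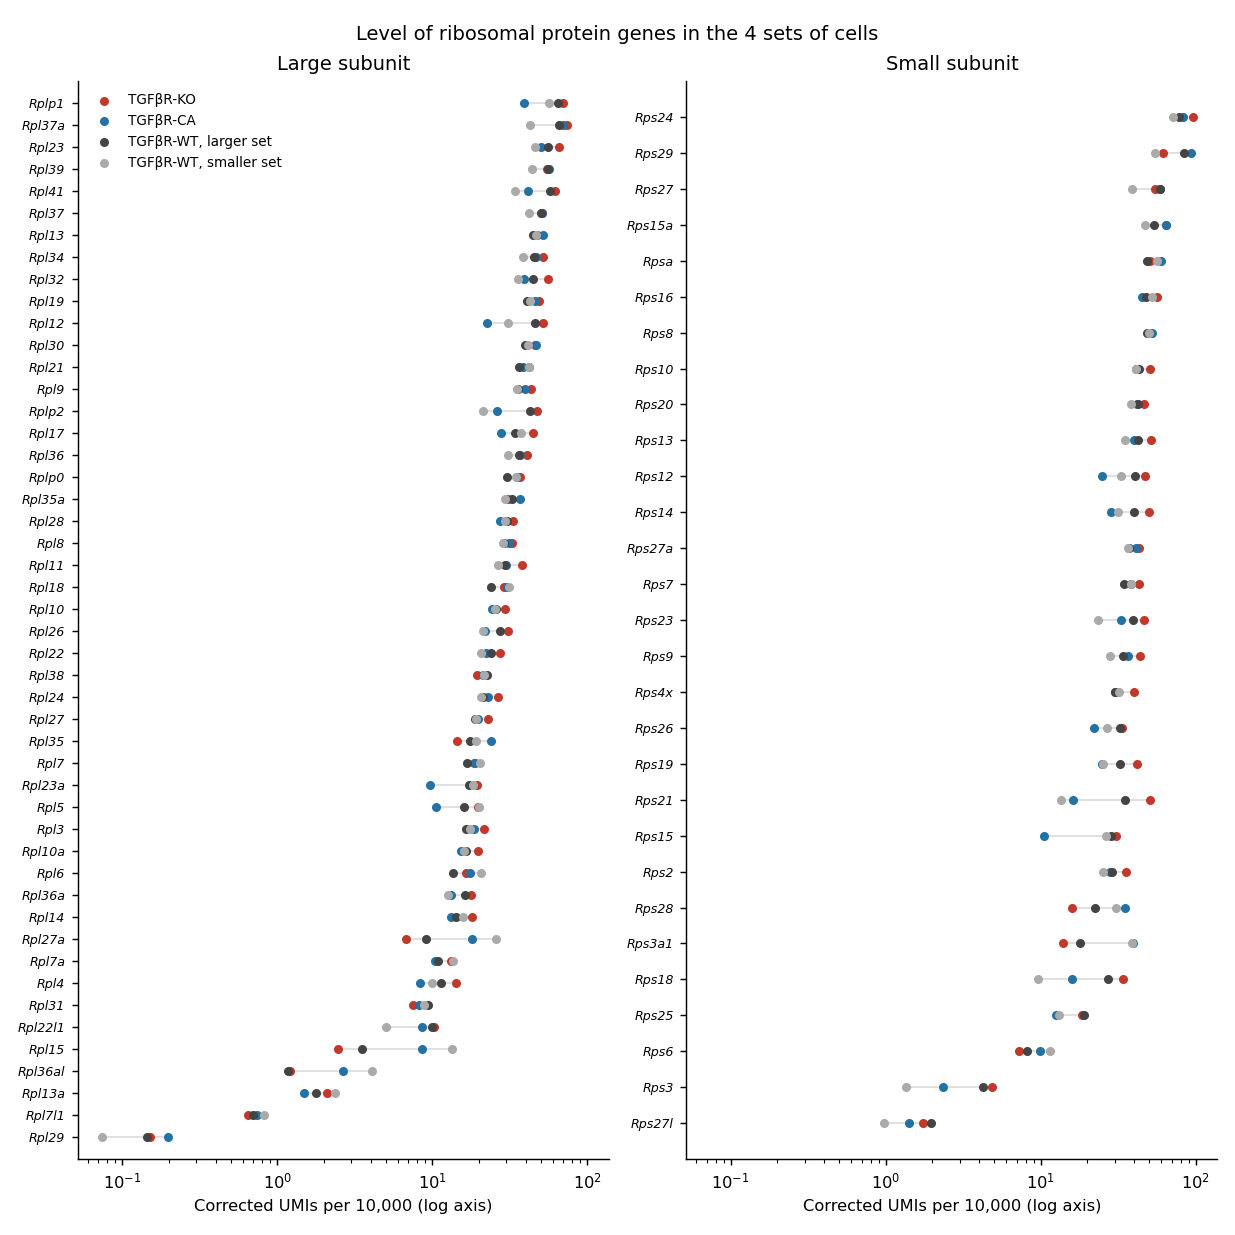
Level of 77 of the 81 ribosomal protein genes tested (corrected UMIs per 10000, log axis) in TGFβR-KO, TGFβR-CA and the larger and smaller TGFβR-WT set, with 1 point per set and a gray line over the range, ordered by the level in pooled TGFβR-WT. Red TGFβR-KO points lie to the right of both TGFβR-WT points for 53 of these genes, and Rpl15, Rpl27a, Rps3a1, Rps18 and Rps21 are among those whose 4 points spread far apart.

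Members were ranked by the ratio nearer to 1, and Rps21, a small subunit protein, came first. Its level was 50.8 in TGFβR-KO, 34.8 in the larger and 13.4 in the smaller TGFβR-WT set, with 16.1 in TGFβR-CA. TGFβR-KO exceeded the larger set 1.46 times and the smaller 3.78 times, but the TGFβR-WT sets were further apart than TGFβR-KO was from the larger set. Rps19, mutated in Diamond-Blackfan anemia, had a level of 41.8 in TGFβR-KO against 32.2 and 25.02 (ratios of 1.30 and 1.67). Rps9 had a level of 43.6 against 33.9 and 28.1 (1.29 and 1.55). Rpl11, which together with Rpl5 binds MDM2 and so tells p53 of faulty ribosome assembly, had a level of 37.7 against 29.5 and 26.6 (1.28 and 1.42). Rps14, the small subunit gene lost in the 5q- syndrome, had a level of 50.2 against 39.7 and 31.6 (1.26 and 1.59). In all of these the 3 other sets lay below TGFβR-KO.

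The members called lower in TGFβR-KO were Rps28, Rps3a1, Rpl15, Rpl27a and Rpl35. Rpl15 had a level of 2.45 in TGFβR-KO, 3.52 in the larger and 13.3 in the smaller TGFβR-WT set, and 8.597 in TGFβR-CA. Rpl27a had a level of 6.75 in TGFβR-KO, 9.15 and 25.6 in the TGFβR-WT sets and 17.9 in TGFβR-CA. For both genes the TGFβR-WT sets were again further apart. Rps28 had a level of 15.9 in TGFβR-KO against 22.4 and 30.6, with 34.7 in TGFβR-CA. Rpl35 had a level of 14.3 in TGFβR-KO against 17.4 and 18.99, with 23.8 in TGFβR-CA. For Rpl35 the ratios of 0.822 and 0.755 were alike, and TGFβR-CA was the highest set.

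The other members fixed for what they are known for were not called in TGFβR-KO. Rpl38, which is known for its part in translating Hox messenger RNAs, had a level of 19.3 in TGFβR-KO against 22.4 and 21.6 in the TGFβR-WT sets. Rps6 had a level of 7.28 against 8.19 and 11.4. Both were thus below both sets, unlike most members. Rpl10, which is needed for the final maturation of the large subunit, had a level of 29.4 against 25.6 and 25.4, and Rpl5 of 19.7 against 15.96 and 19.8. Rplp0, the base of the ribosomal stalk that recruits elongation factors, had a level of 36.6 against 30.1 and 34.6, and its stalk partners Rplp1 and Rplp2 of 69.1 against 64.4 and 56.6, and of 47.0 against 42.6 and 21.2. Rpsa, also known as the laminin receptor, had a level of 50.9 between 48.2 and 55.9. Rps26 had a level of 33.2 against 32.3 and 26.9, and Rpl13a of 2.10 between 1.78 and 2.36.

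The 10 members with the highest levels in pooled TGFβR-WT cells (Rps24, Rps29, Rplp1, Rpl37a, Rpl23, Rps27, Rpl39, Rps15a, Rpsa and Rpl41) held 24.1% of the summed level. Rps29 had a level of 61.0 in TGFβR-KO, between 83.8 and 54.6 in the TGFβR-WT sets, and of 92.9 in TGFβR-CA, the highest set. Rps24, the highest, had a level of 96.3 in TGFβR-KO against 77.8 and 71.5 (ratios of 1.24 and 1.35).

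**Figure D2:**
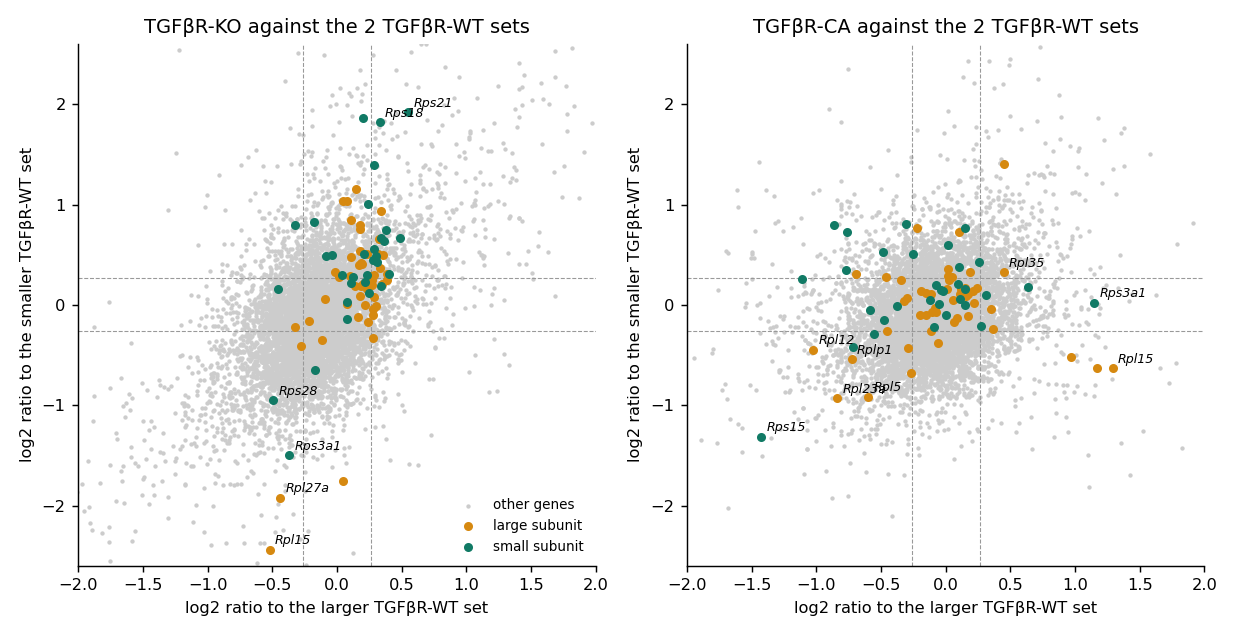
For each gene tested, the log2 ratio to the larger (x axis) and to the smaller (y axis) TGFβR-WT set, in TGFβR-KO (left) and TGFβR-CA (right), with ribosomal protein genes in color, other genes in gray and dashed lines at a ratio of 1.2 in each direction. Some gray genes lie outside the axes. In TGFβR-KO most colored points lie above 0 on both axes, with 19 members past both dashed lines at the upper right and 5 at the lower left, while in TGFβR-CA 2 members are past them at the upper right and 9 at the lower left.

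In TGFβR-CA cells the summed level lay between those of the TGFβR-WT sets, with some members well below them. TGFβR-CA and TGFβR-KO are compared with the same TGFβR-WT cells, so their ratios are not independent and are only set side by side. Of 81 members, 28 (34.6%) lay above both TGFβR-WT sets, 21 (25.9%) below both and 32 between them. Of all genes tested, 19.4% lay above and 40.8% below both sets. The median ratio to pooled TGFβR-WT was 1.004 over the members (0.926 over all genes tested). Called higher were 2 members (2.47%), Rpl29 and Rpl35, where 5.27% of all genes tested were called, and called lower were 9 members (11.1%), where 14.7% of all genes tested were. Neither share of members called exceeds that of all genes called. The members called lower were Rpl5, Rpl12, Rpl13a, Rpl17, Rpl23a, Rplp1, Rps12, Rps15 and Rps26. Without Gm42418, Lars2, AY036118 and mitochondrial genes in the total, the summed level of TGFβR-CA was 1.04 times that of TGFβR-WT in place of 0.992. The direction of this small difference thus depends on the total. With that total 6 members were called lower, where 10.2% of all genes tested were.

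Several of the lower members were far below every other set. Rps15 had a level of 10.5 in TGFβR-CA against 28.4 and 26.2 in the TGFβR-WT sets and 30.5 in TGFβR-KO (ratios of 0.372 and 0.402). Rpl23a had a level of 9.62 against 17.2 and 18.3, with 19.5 in TGFβR-KO. Rpl5 had a level of 10.5 against 15.96 and 19.8, with 19.7 in TGFβR-KO. For these 3 genes TGFβR-CA was the lowest set, and the TGFβR-WT sets lay close together for Rps15 and Rpl23a, while for Rpl5 the smaller stood 1.24 times above the larger. Rpl12, next to the stalk on the large subunit, had a level of 22.6 against 46.0 and 30.8, and Rplp1 of 38.9 against 64.4 and 56.6. Of these, Rpl23a and Rpl5 shared 87.7% and 100% of their 60-base stretches with other genes, while Rps15 shared 34.8% and Rpl12 0%. Of the genes called higher, Rpl35 had a level of 23.8 against 17.4 and 18.99, while Rpl29 had only 86 corrected UMIs in TGFβR-CA and 9 in the smaller set. Rps15a, Rpl35a and Rps28 also had ratios above 1 against both sets (1.13 to 1.55).

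Single members also parted the TGFβR-WT sets from one another. Of 81 members, 12 were higher in the smaller set by the ratio of 1.2 and 28 lower (14.8% and 34.6%), where 27.6% and 28% of all genes tested were. For 8 members TGFβR-CA and the smaller TGFβR-WT set lay on one side and TGFβR-KO and the larger set on the other, by at least 1.5 times in every pair of sets, a rule chosen after the values were seen. TGFβR-CA and the smaller set were higher for Rpl15, Rpl27a, Rpl36al and Rps3a1, where 1.3% of all genes tested met the rule, and lower for Rplp2, Rps3, Rps18 and Rps21, where 2.43% did. Rps3, for example, had a level of 4.87 in TGFβR-KO and 4.24 in the larger set, and of 2.33 in TGFβR-CA and 1.34 in the smaller set. Each side of this split holds 1 TGFβR-WT set with 1 other condition, which is also how the samples were divided between the batches, although the labels do not say which TGFβR-WT set was in which. Of the 16 shared barcodes, 14 joined TGFβR-KO and the larger set and 0 joined TGFβR-CA to either. Of the 8 genes, 5 (Rpl15, Rpl27a, Rps3a1, Rps18 and Rps21) are among those called in TGFβR-KO, and batch was not tested for them. Along the same pairs the summed level had a ratio of 1.13 for TGFβR-KO to the larger and 1.07 for TGFβR-CA to the smaller set, so by these pairs both conditions stood above TGFβR-WT. Leaving all 8 out of the sum gave a ratio of TGFβR-KO to TGFβR-WT of 1.17, as with them.

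Rps3a1, a small subunit protein, fell into cells with few and cells with many UMIs in TGFβR-KO and in the larger TGFβR-WT set, which was noticed after the values were seen. Its level was 13.8 in TGFβR-KO, 17.9 in the larger and 39.0 in the smaller TGFβR-WT set and 39.6 in TGFβR-CA. In TGFβR-KO, 1293 of 2975 cells (43.5%) had at most 2 corrected UMIs of Rps3a1, a second peak stood at 8 UMIs (179 cells), and fewer cells lay between (118 cells with 4 UMIs). In the larger TGFβR-WT set 196 of 709 cells (27.6%) had at most 2, against 3 of 1098 cells in TGFβR-CA and 0 of 298 in the smaller set. Among TR-TFH cells the variance of its UMIs over their mean was 6.16 in TGFβR-KO and 4.41 in the larger set, the highest of the members with a mean above 1 UMI (medians of 1.89 and 1.71). In TGFβR-CA and the smaller set it was 1.81 and 1.48, within the range of the other members.

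The clusters that the authors named within TGFβR-KO differed in this respect. The mice were pooled and the animal each cell came from was not analysed here, so for Rps3a1 a difference between clusters or sets cannot be told apart from one between animals. Of CTL cells, 81.3% had at most 2 UMIs of Rps3a1, whereas 3.05% of Tumorigenic and 1.30% of Pre-tumorigenic cells did. The other clusters lay between, at 40.3% to 52.2%. As levels, Rps3a1 stood at 4.66 in CTL, 22.02 in Tumorigenic and 25.2 in Pre-tumorigenic cells, and at 12.01 to 12.8 in the other clusters of TGFβR-KO. In the larger TGFβR-WT set Pre-tumorigenic cells also had the smallest share of such cells (7.41% of 27 cells), and the other clusters had 23.2% to 46.3%. The summed level of the other members was 2829 in TGFβR-KO cells with at most 2 UMIs of Rps3a1 and 2744.5 in those with 5 or more, both above the sums of the TGFβR-WT sets. Of all TGFβR-KO cells, 268 (9.01%) had 3 or 4 UMIs and lie near these limits.

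The share of ribosomal protein transcripts also differed between the authors' clusters, with TR-TFH cells at the top in every set. TR-TFH cells, which the authors named tissue-resident follicular helper T cells, had a summed level of 3362 in TGFβR-KO, 2644 in TGFβR-CA, and 2758 and 2457 in the TGFβR-WT sets. Migratory cells followed in the 3 sets with at least 20 of them (2955, 2634 and 2642). Activated cells were lowest in TGFβR-CA (1821) and in the TGFβR-WT sets (1722 and 1712), while in TGFβR-KO Cycling cells (2192) lay below Activated cells (2359). The highest level exceeded the lowest 1.53 times in TGFβR-KO, 1.45 times in TGFβR-CA, and 1.602 and 1.43 times in the TGFβR-WT sets. The authors clustered the cells on genes of the same table, so differences between clusters are a description. Clusters also differed in detected genes, with medians in TGFβR-KO of 1328 in TR-TFH, 1591 in Activated and 1919 in Cycling cells, which is why the ratio was also taken in cells with 1400 to 1700 detected genes. There TR-TFH stood at 1.32 times the level of Activated cells in TGFβR-KO, 1.34 in TGFβR-CA and 1.51 in the larger TGFβR-WT set, and the smaller set had too few Activated cells.

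**Figure D3:**
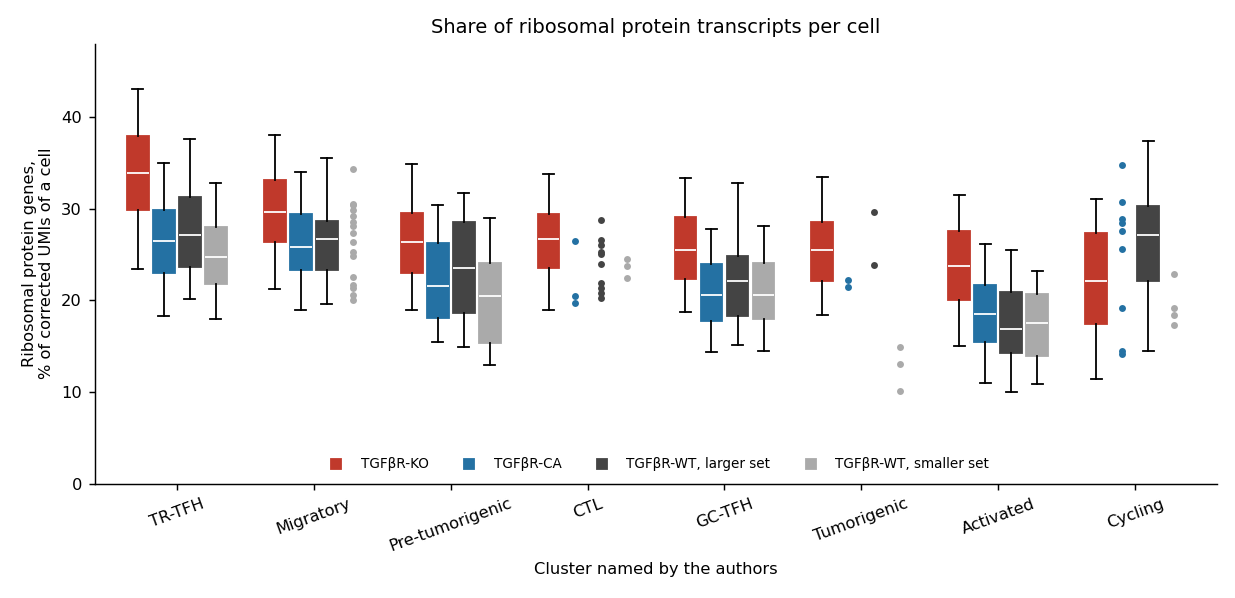
Share of ribosomal protein genes in the corrected UMIs of each cell (%), by the authors' cluster and set. Boxes give the quartiles and median and whiskers the 5th and 95th percentile, and sets with fewer than 20 cells in a cluster are drawn as single cells. TR-TFH boxes are the highest in each set, the TGFβR-KO median in Activated cells (23.7%) lies above the upper quartiles of the TGFβR-WT sets (20.95% and 20.7%), and in Cycling cells the TGFβR-KO median (22.1%) lies below that of the larger TGFβR-WT set (27.1%), with overlapping boxes.

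Nearly every member was higher in TR-TFH than in Activated cells. TR-TFH exceeded Activated cells for 77 of 81 members in TGFβR-KO, 78 of 81 in TGFβR-CA, 77 of 81 in the larger set and 75 of 80 in the smaller, and for 75 of 80 in all 4 sets. Fewer members had TR-TFH as their highest cluster, at 61 of 81 in TGFβR-KO, 31 in TGFβR-CA, and 35 and 66 in the TGFβR-WT sets. In TGFβR-CA 46 were highest in Migratory cells, and in the larger set 27 in Cycling and 16 in Migratory cells. Over all genes tested the median ratio of TR-TFH to Activated was 0.862 to 0.919 in the 4 sets, and over the members 1.37 to 1.53. Rpl12 had one of the widest contrasts, with a level of 75.2 in TR-TFH and 39.1 in Activated cells of TGFβR-KO, and Rpsa stood 1.79 to 2.34 times higher in TR-TFH than in Activated cells of the 4 sets. Rpl7l1 and Rps27l were lower in TR-TFH than in Activated cells in all 4 sets, and neither is on the list of ribosomal proteins. In TGFβR-KO the members with the smallest range over the 8 clusters were Rps25 (1.23 times), Rpl7 (1.24) and Rpl4 (1.27), and those with the largest were Rps27l (5.90), Rps3a1 (5.40), Rpl7l1 (4.23), Rps27 (3.82) and Rpl29 (2.70, from 174 corrected UMIs).

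**Figure D4:**
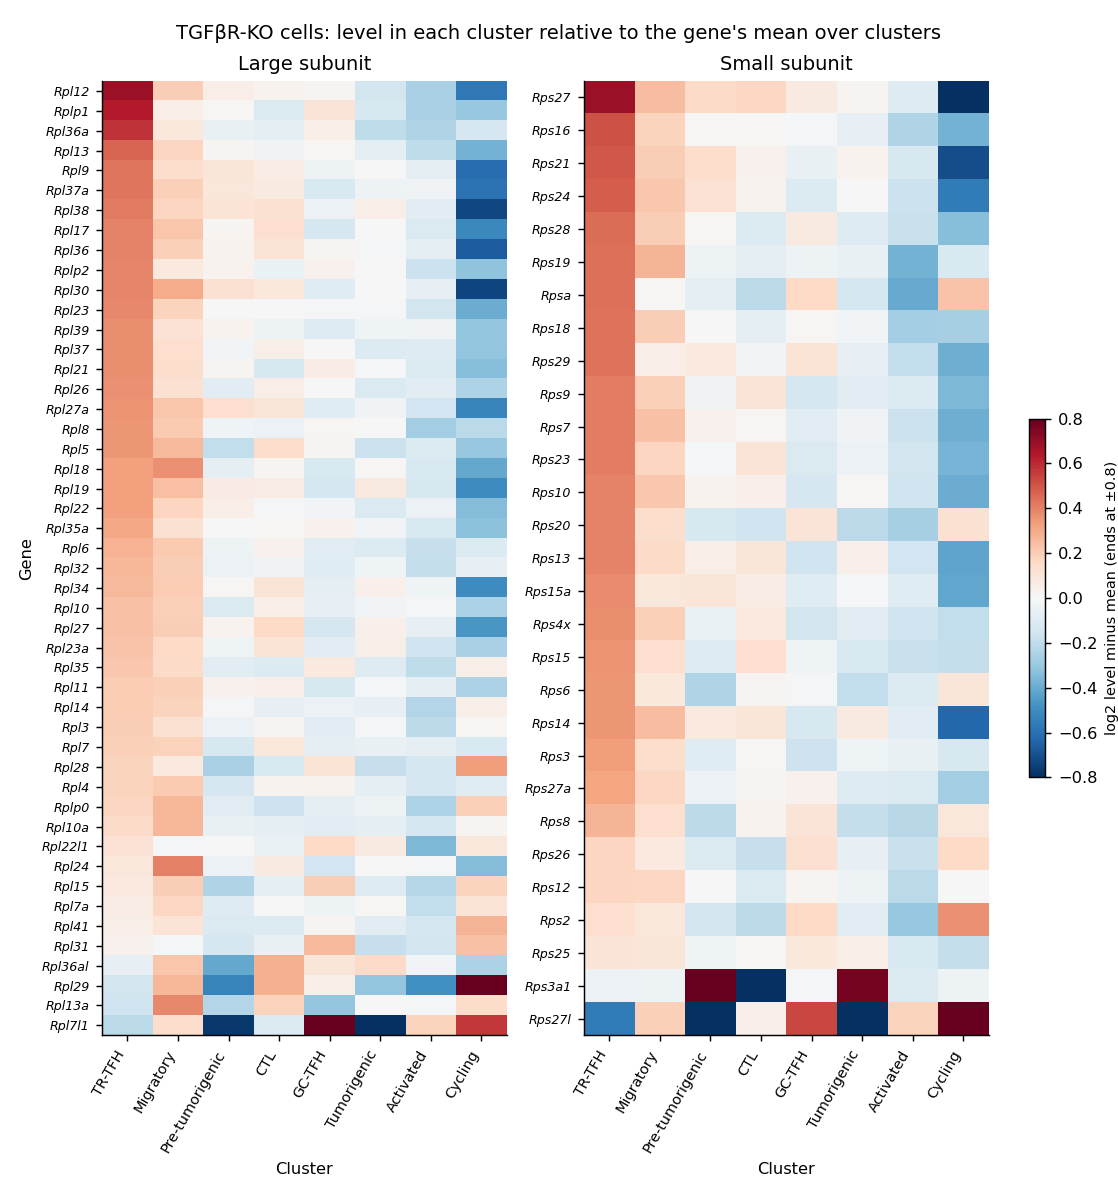
Level of 77 ribosomal protein genes in the 8 clusters of TGFβR-KO cells, as log2 level minus the gene's mean log2 level over the clusters (color, ending at ±0.8), with genes ordered by the value in TR-TFH cells. The TR-TFH column is red for most genes of both subunits and the Cycling column blue for many, while Rps3a1 is red in Pre-tumorigenic and Tumorigenic and blue in CTL cells, and Rpl7l1 and Rps27l are red in GC-TFH and Cycling cells.

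Rps27 and its paralog Rps27l, which p53 is known to induce, went in opposite directions in dividing cells. In TGFβR-KO, Rps27 had a level of 19.9 in Cycling cells and of 43.9 to 76.0 in the other clusters, and Rps27l of 5.02 in Cycling cells and of 0.850 to 2.50 in the others. The larger TGFβR-WT set had the same order, with Rps27 at 26.6 in Cycling and 36.5 to 71.0 in other cells and Rps27l at 5.98 in Cycling and 1.33 to 2.55 in other cells. The ratio of Rps27 to Rps27l was thus 3.97 and 4.44 in Cycling cells of these sets and 14.3 to 65.2 in their other clusters. The other sets had fewer than 20 Cycling cells. Rps27 shares part of its transcript end with Rps27rt, which had a level of 3.02 in TGFβR-KO, 2.71 and 0.676 in the TGFβR-WT sets and 0.961 in TGFβR-CA. Besides Rps27l, the members Rpl28, Rpl41 and Rps2 had their highest level in Cycling cells in both of these sets.

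The other paralogs had levels well below those of their parent genes, with no shared pattern. Rpl22l1 had a level of 10.3 in TGFβR-KO, 8.53 in TGFβR-CA, and 9.95 and 5.01 in the TGFβR-WT sets, and Rpl22 of 27.3, 22.2, 24.0 and 20.6. Rpl36al had a level of 1.21, 2.65, 1.18 and 4.10 in the same order, and Rpl36a of 17.6, 13.2, 16.3 and 12.6. TGFβR-KO thus lay near the larger set for both paralogs. Rpl7l1 had a level of 0.648 to 0.824 in the 4 sets, and in TGFβR-KO it was highest in GC-TFH cells (1.35) and lowest in Tumorigenic cells (0.319). Its parent Rpl7 had a level of 16.7 to 20.2, and Rpl39 one of 43.7 to 56.1.

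Within clusters, TGFβR-KO again had the higher sum, except in Cycling cells. In Activated cells its summed level was 2359 against 1722 and 1712 in the TGFβR-WT sets, which here lay within 0.994 of each other, so that TGFβR-KO stood 1.37 and 1.38 times above them. TGFβR-CA stood at 1821. In TR-TFH cells the ratios were 1.22 and 1.37, in GC-TFH cells 1.16 and 1.24 and in Pre-tumorigenic cells 1.12 and 1.31. In Migratory cells, of which the smaller set had only 16, the ratio to the larger set was 1.12. Tumorigenic and CTL cells could not be compared, since no other set had 20 of them, and their summed levels in TGFβR-KO were 2553 and 2630. The members above both TGFβR-WT sets numbered 64 of 80 in Activated cells (21.5% of all genes tested there), 61 of 81 in TR-TFH cells (16.2%), 58 of 81 in GC-TFH cells (23.1%) and 53 of 81 in Pre-tumorigenic cells (20.1%). The 19 members called higher in all TGFβR-KO cells, which these same cells helped to choose, were each above both sets in Activated, TR-TFH and GC-TFH cells, and 18 of them in Pre-tumorigenic cells.

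**Figure D5:**
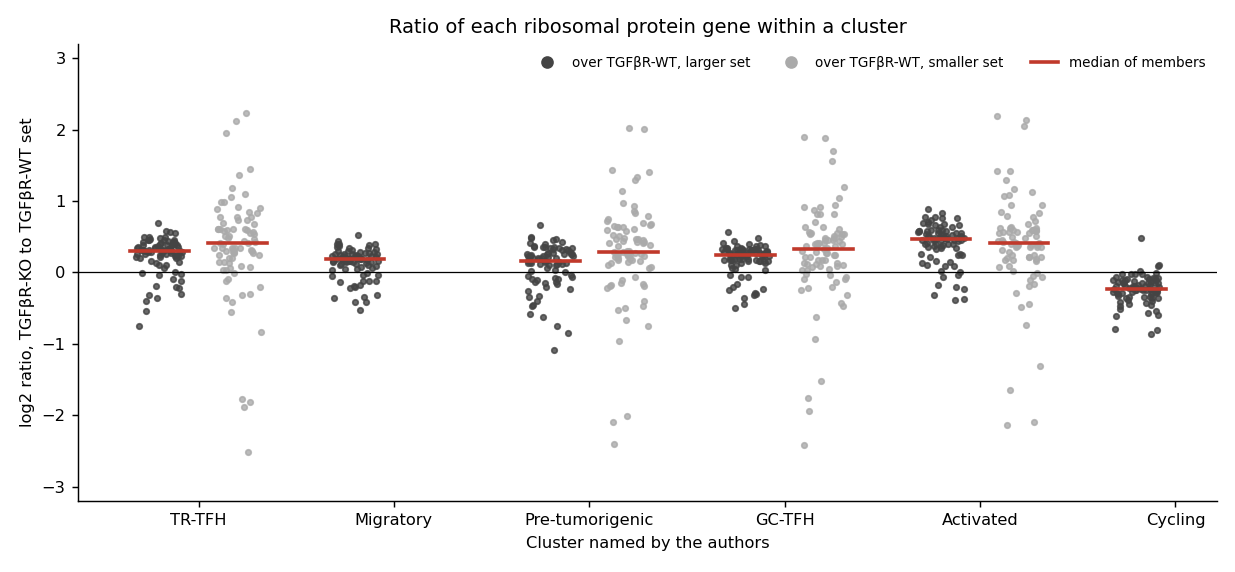
log2 ratio of TGFβR-KO to the larger (dark gray) and smaller (light gray) TGFβR-WT set for each ribosomal protein gene within a cluster, with 1 point per gene and the median over genes as a red line. Sets with fewer than 20 cells in a cluster are left out. Medians lie above 0 in 5 clusters, with the highest median against the larger set in Activated cells, and below 0 in Cycling cells, where 77 of 81 points are below 0.

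In Cycling cells the order was the opposite against the larger TGFβR-WT set, the only other set with at least 20 of them. The smaller set had only 4 such cells, with a summed level of 1939, and was not compared. The summed level was 2192 in 77 TGFβR-KO cells and 2577 in 41 cells of the larger TGFβR-WT set, a ratio of 0.851, and 77 of 81 members were lower in TGFβR-KO (47.3% of all genes tested there). Detected genes differed at the same time, with medians of 1919 and 1610, and their part in this result was not tested. Of these cells, 11 of TGFβR-KO and 13 of the larger set had a barcode that occurs in another set. Without them the levels were 2137 and 2447 (66 and 28 cells), a ratio of 0.873. Among the cells left out, the level was 2550.5 in TGFβR-KO and 2888 in the larger set.

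Lists of genes that work with the ribosome had median ratios of TGFβR-KO to pooled TGFβR-WT on either side of 1. The median was 1.12 for other TOP transcripts, 1.04 for elongation factors, 0.965 for initiation factors and 0.946 for the mitochondrial ribosome, beside 1.17 for the members and 0.888 for all genes tested. Calls in these lists stand beside the 6.7% (higher) and 21.4% (lower) of all genes tested. Of ribosomal components not taken by symbol, Fau was called higher in TGFβR-KO (79.6 against 64.9 and 59.98), as was Rack1, a scaffold on the small subunit (27.6 against 19.6 and 21.7). Among 12 other TOP transcripts tested, 2 were called higher and 0 lower. They were Naca, a subunit of the complex that binds nascent chains (15.2 against 12.3 and 11.0), and Snhg12, a host of small nucleolar RNAs (0.518 against 0.403 and 0.354). Of 7 elongation factors 1 was called higher, Eef1b2 (14.7 against 12.1 and 8.14), while Eef1a1 (52.6) lay between 41.7 and 62.8. Of 33 initiation factors and poly(A)-binding proteins 5 were called lower and 2 higher. Those called higher were Eif3e (4.66 against 3.61 and 3.31) and Eif3h (6.23 against 4.92 and 5.01), subunits of the factor that brings the small subunit to messenger RNA. Among those called lower were other subunits of this factor, Eif3b (0.802 against 1.057 and 1.063) and Eif3j1 (0.892 against 1.077 and 1.154). Eif4g1, Eif4ebp1 and Pabpc4 were the rest of those called lower.

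Genes for building ribosomes had a median ratio to pooled TGFβR-WT of 0.906, close to that of all genes (0.888). Of 40 tested, 2 were called higher and 0 lower in TGFβR-KO (Polr1a and Bysl, at levels near 0.2), and Ncl, encoding nucleolin, had a level of 6.73 against 7.84 and 7.11. The mitochondrial ribosome, built from other genes, had a summed level of 48.5 in TGFβR-KO against 52.4 and 48.7, with 1 of 73 genes called higher and 6 lower. Of 15 regulators tested 4 were called lower and 1, Myc, higher. Myc, known to drive transcription of these genes, had a level of 0.261 in TGFβR-KO, 0.107 in TGFβR-CA, and 0.196 and 0.0742 in the TGFβR-WT sets. Called lower were Mtor, encoding the mTORC1 kinase (0.0950 against 0.176 and 0.214), and Tsc1 (0.166 against 0.339 and 0.280). So were Larp4b (1.17 against 1.62 and 1.44) and Sesn3 (1.13 against 1.51 and 1.80). Myc, Mtor and Tsc1 rest on only 405, 235 and 440 corrected UMIs over all cells. In TGFβR-CA, 9 of the 40 ribosome assembly genes were called lower, among them Ncl (5.52), and 1 higher. Differences between these lists and the members were not tested. Pseudogene rows of ribosomal protein genes, which share sequence with the members, were highest in TGFβR-KO (2.69 in sum against 2.08 and 0.552), with 3 of 4 tested called higher.

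Pearson's r of each member with the summed level was taken on the log2 scale, over the 20 combinations of set and cluster with at least 50 cells. Every member is part of that sum, which by itself raises r, so these values do not show that the members move together. The r was highest for Rpl23 (0.97) and Rps10 (0.97) and lowest for Rpl15 (-0.31) and Rpl7l1 (-0.30). Of 7409 other genes, the 10 most alike were Eif3e (0.85), Eef1b2 (0.84), Klf3 (0.82), Fau (0.82), Hs3st3b1 (0.75), Trim12a (0.74), Ifi213 (0.73), Nsa2 (0.73), Itih5 (0.72) and Themis (0.72). Of these, Hs3st3b1, Ifi213 and Itih5 had levels of only 0.110, 0.102 and 0.0565 in pooled TGFβR-WT. These are near or below the 0.1 added to each level before the log. The combinations of set and cluster share libraries and totals, so the values describe these cells only.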

How the data were processed

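Cells were processed by the authors with Cell Ranger 3.1.0 (per the labels) on mm10 and with Seurat. Cells with 1000 to 5000 detected genes and under 10% mitochondrial UMIs were kept, normalized with SCTransform, integrated and clustered, and γδ T cells and epithelial cells were removed. In the deposited table each value is a natural log, taken of the corrected UMI number plus 1. With the log undone values lay within 3.6e-12 of whole numbers. Since these differ from raw counts, the design held no count model, and the original depth is unknown.

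Levels were computed as corrected UMIs per 10000 over the cells of a set, or of a cluster with at least 20 cells, using Python 3.11.15, numpy 2.4.6, scipy 1.17.1 and pandas 2.3.3. No doublet caller was run. Members, lists and rules were chosen with earlier results of these data known. Named members are the 10 with the highest TGFβR-WT level, paralogs with their parents, the 5 highest and 5 lowest by the ratio nearer to 1 for TGFβR-KO and TGFβR-CA, those with the 5 largest and 3 smallest ranges over TGFβR-KO clusters, and 13 fixed genes. BC018473, St6galnac1 and other genes singled out were chosen after their values were seen. Values of a few single genes are not reported here. The ratio calls were run on simulated data as a check of the computation only. There the TGFβR-WT sets differed by sampling alone, unlike here, so it does not measure how reliable the calls are. Gene annotation came from GENCODE vM21 and start windows from RefSeq on GRCm38.p6. Alternatives changed the total, the scaling, the cells, the weighting of clusters, the TGFβR-WT set, the ratio and the minimum, and, chosen after seeing the data, the range of detected genes and the members summed.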

Additional observations from a re-analysis of the deposited data

Results flagged for a closer look

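The summed level of the ribosomal protein genes in Cycling cells was drawn out because TGFβR-KO stood below the larger TGFβR-WT set there (a ratio of 0.851), while in all 5 other clusters that could be compared it stood above it (ratios of 1.12 to 1.37). The difference between Cycling cells and the other clusters was not tested, since each set is 1 library. It rests on 77 and 41 cells, of which 11 and 13 have a barcode found in another set.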

How the results depend on the processing

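The direction of the summed ratio of TGFβR-KO to TGFβR-WT was the same under every alternative, and it changed most when sets were scaled by the median of gene ratios, to 1.32. The median of all genes is -0.17 (log2) in TGFβR-KO and -0.11 in TGFβR-CA on the reported scale, and about 0 after that scaling. With it TGFβR-CA to TGFβR-WT was 1.07 in place of 0.992, so the direction turned, as it did with other totals, cells or TGFβR-WT sets (0.958 to 1.07 over the alternatives). Under the median scaling 48 members were called higher and 3 lower in TGFβR-KO, 6 were called higher in TGFβR-CA, and the highest over the lowest cluster in TGFβR-KO was 1.66. Of all genes, 12.3% were then called higher and 10.6% lower in TGFβR-KO, in place of 6.7% and 21.4%. In TGFβR-CA 8.65% of all genes were called higher and 8.72% lower, beside 6 and 6 members. Against the larger TGFβR-WT set alone, 29 of 81 members were higher and 8 lower in TGFβR-KO, beside 10.9% and 36.1% of all genes. In TGFβR-CA 11 were higher and 24 lower, beside 14.3% and 30.4%. Against the smaller set alone, 45 were higher and 9 lower in TGFβR-KO, beside 21.01% and 40.7% of all genes. In TGFβR-CA 20 were higher and 13 lower, beside 19.3% and 34.8%. Against pooled cells, 34 were higher and 9 lower in TGFβR-KO, beside 10.8% and 37.9% of all genes. In TGFβR-CA 10 were higher and 19 lower, beside 10.7% and 29.8%. With a ratio of 1.5 the counts were 0 and 0 in TGFβR-KO, beside 2.94% and 5.43% of all genes tested. They were 0 and 3 (Rpl23a, Rpl5 and Rps15) in TGFβR-CA, beside 1.26% and 2.75%. Between the TGFβR-WT sets they were 5 and 14, beside 10.2% and 11.9%. With at least 1000 corrected UMIs, 1 member was called higher in TGFβR-CA, where 2.57% of all genes were. With equal weight over clusters 3 members were called lower in TGFβR-KO (14.8% of all genes). There 17 members were called higher (5.73% of all genes), among them 14 of the 19. Without the cells with the most detected genes the highest over the lowest cluster in TGFβR-KO was 1.45. Among cells with 1400 to 1700 detected genes it was 1.32, as was TR-TFH over Activated there, and TR-TFH over Activated was 1.34 in TGFβR-CA and 1.51 in the larger TGFβR-WT set, while the highest over the lowest cluster was 1.27 for the smaller one. Of 179 comparisons of such values with an alternative, 148 moved by less than the spread between the TGFβR-WT sets or between the 4 sets, or by under 1.5 times for counts, and of 860 for single members 802 did. No paired analysis was possible because the columns carry no replicate numbers, and only 1 sample stands for each of TGFβR-KO and TGFβR-CA. The sizes of the smaller TGFβR-WT set (298 cells) and of single clusters limit what could be compared, and the cause of the changes listed was not tested.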

Other observations

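Rps3a1 varied together with a pair of neighboring genes on another chromosome. Rps3a1 lies on chromosome 3 (86137940 to 86142702 on GRCm38, minus strand), and BC018473, a noncoding antisense gene, and St6galnac1, a sialyltransferase gene, lie on chromosome 11 (116752167 to 116759373 and 116765025 to 116775507). In TGFβR-KO, 2.94% of the 1293 cells with at most 2 UMIs of Rps3a1 had a UMI of BC018473, against 60.5% of the 1414 cells with 5 or more. The same direction was seen within clusters with over 100 cells on each side: 1.91% against 62.8% in Migratory, 1.48% against 27.4% in TR-TFH, 5.80% against 67.4% in Activated and 1.25% against 30.6% in GC-TFH cells. The level of St6galnac1 was 0.382 in the former and 2.05 in the latter cells over all clusters. In the larger TGFβR-WT set the direction was the opposite, with a UMI of BC018473 in 47.4% of 196 cells with at most 2 UMIs of Rps3a1 and in 22.7% of 415 cells with 5 or more. In TGFβR-CA and the smaller TGFβR-WT set nearly all cells had 5 or more UMIs of Rps3a1, and 0.553% of 1085 and 0.673% of 297 such cells had a UMI of BC018473. These values describe cells of pooled mice whose animal of origin was not analysed here. Among Tumorigenic cells of TGFβR-KO, 315 of 361 (87.3%) had 5 or more UMIs of Rps3a1, and 76.8% of these had a UMI of BC018473. So did 77.1% of 35 cells with 3 or 4 and 63.6% of 11 with at most 2. In Pre-tumorigenic cells it was 76.1% of 205, 68.2% of 22 and 100% of 3 cells, in the same order. In both clusters BC018473 was thus frequent at any number of Rps3a1 UMIs, with few cells at most 2. Among CTL cells 32 of 321 (9.97%) had 5 or more UMIs of Rps3a1. Of these 59.4% had a UMI of BC018473, against 1.53% of 261 with at most 2.

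Rpsa had the highest variance of UMIs over their mean among TR-TFH cells of TGFβR-CA (4.91) and of the smaller TGFβR-WT set (3.62), where medians over members were 1.71 and 1.598.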
